A study of Mus musculus with 33 samples.

Results

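The genes described here are 10 genes of the primitive streak and of the early mesoderm that leaves it, T (brachyury), Eomes, Mixl1, Mesp1, Tbx6, Msgn1, Gsc, Wnt3, Evx1 and Foxc2. They were chosen by name as known streak and mesoderm regulators, with earlier results of these data known. All 10 were found by symbol among the 37991 genes that every count file lists. In the gastrulating mouse embryo, signals of the WNT, NODAL, BMP and FGF families induce pluripotent epiblast cells to enter the primitive streak, where transcription factors of the T-box and homeobox families drive them towards mesoderm and endoderm. Cell aggregates called embryoid bodies (EBs), grown in serum, pass through a similar stage, whereas retinoic acid (RA) added to EBs diverts them towards neural fates.

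RNA was sequenced from mouse E14TG2a embryonic stem cells (mESCs) and from EBs made of them, to compare control cells with cells mutant for a base excision repair enzyme. NEIL1 and NEIL2 are DNA glycosylases that remove oxidised bases, and APEX1 is the endonuclease that acts after them. Cells of every genotype had been transfected with the Cas9 plasmid and a puromycin selection plasmid, the control cells with a Cas9 plasmid that carried no guide, and single colonies were then picked. The control clones were #1, #4 and #7, labelled wild-type, the Neil1 knockout clones #7, #9 and #11, and the Neil2 knockout clones #1, #11 and #14, while the Apex1 knockout was 1 clone, #46, analysed in technical duplicates. Each clone gave undifferentiated mESCs, EBs harvested on day 8, and EBs + RA, which were split from the same aggregates on day 4 and then received 5 µM RA until day 8. This made 12 groups and 33 libraries. Values of replicates are listed in the order of these clone numbers throughout. The duplicates of the Apex1 clone measure technical spread only, so a p-value for this clone says nothing about other Apex1 mutant clones. The 3 mutants of a stage were compared with the same 3 control libraries, and their differences are therefore not independent of each other.

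On the mouse genome NCBIM37, T lies on chromosome 17, 8627288 to 8635361, Eomes on chromosome 9, 118387330 to 118395250, Mixl1 on chromosome 1, 182623174 to 182627165, Mesp1 on chromosome 7, 86937127 to 86938674 and Tbx6 on chromosome 7, 133924997 to 133929074. Msgn1 lies on chromosome 12, 11215188 to 11215754, Gsc on chromosome 12, 105709419 to 105711537, Wnt3 on chromosome 11, 103635464 to 103679271, Evx1 on chromosome 6, 52263492 to 52268372 and Foxc2 on chromosome 8, 123640071 to 123642792. None of the 10 genes is X-linked. Counts cover all exons of a gene, from libraries that do not keep the strand, and the strand setting of the counting is not given in the sources used here.

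Promoter sequences were taken from RefSeq on GRCm38.p6, as the 250 bases before the annotated start, and 8 of the 10 genes had an entry. Mixl1 and Foxc2 had none. The 5 sequences below are those of the T-box factors T and Eomes, which were among the most abundant of the 10 genes in control EBs, of Evx1, which fell far in the mutant EBs, and of Mesp1 and Msgn1, the only promoters with a match to a motif searched. They are at chr17:8434173-8434422 on the plus strand, chr9:118477939-118478188 on the plus strand, chr7:79793591-79793840 on the minus strand, chr12:11208949-11209198 on the minus strand and chr6:52313248-52313497 on the plus strand. Each is written 5′ to 3′ along the gene, and capitals mark every CG dinucleotide and the matches to the TCF/LEF motif.
T: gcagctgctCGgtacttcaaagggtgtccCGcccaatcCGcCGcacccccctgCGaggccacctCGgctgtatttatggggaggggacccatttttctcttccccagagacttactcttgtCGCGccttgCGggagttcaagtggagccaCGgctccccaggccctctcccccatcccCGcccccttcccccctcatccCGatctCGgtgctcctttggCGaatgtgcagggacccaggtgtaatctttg
Eomes: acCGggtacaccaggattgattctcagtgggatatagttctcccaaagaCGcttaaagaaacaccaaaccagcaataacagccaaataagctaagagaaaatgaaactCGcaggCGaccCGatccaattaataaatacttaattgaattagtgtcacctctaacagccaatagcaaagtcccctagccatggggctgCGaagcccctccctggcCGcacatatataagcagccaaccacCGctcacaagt
Mesp1: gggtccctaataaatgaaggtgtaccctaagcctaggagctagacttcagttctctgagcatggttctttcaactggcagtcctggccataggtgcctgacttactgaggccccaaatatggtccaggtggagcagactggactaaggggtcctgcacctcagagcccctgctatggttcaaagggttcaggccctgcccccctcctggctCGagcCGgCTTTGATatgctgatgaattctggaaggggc
Msgn1: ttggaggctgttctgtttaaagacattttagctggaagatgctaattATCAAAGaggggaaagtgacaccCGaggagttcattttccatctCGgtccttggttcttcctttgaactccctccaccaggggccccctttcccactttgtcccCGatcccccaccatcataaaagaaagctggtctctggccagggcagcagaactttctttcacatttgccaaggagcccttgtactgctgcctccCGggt
Evx1: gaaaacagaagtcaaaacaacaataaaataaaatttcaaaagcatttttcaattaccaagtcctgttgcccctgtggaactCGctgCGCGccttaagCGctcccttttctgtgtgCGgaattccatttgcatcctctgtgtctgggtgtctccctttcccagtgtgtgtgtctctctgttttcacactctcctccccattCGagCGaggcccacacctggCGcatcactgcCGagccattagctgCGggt
The 8 promoters differed in CG content. Those of Gsc and Wnt3 held 22 CG dinucleotides each, that of T 14, Evx1 10, Eomes 8, Tbx6 6, Msgn1 4 and Mesp1 2, against a median of 6 over 27025 promoters of the same length. On both strands, the letters CTTTGAT, which TCF/LEF factors of the WNT pathway can bind, occurred in Mesp1 from 31 to 25 bases before the start and, on the opposite strand, in Msgn1 from 203 to 197 bases before it, and 3.23% of all promoters held them. The T-box letters AGGTGTGA (1.14% of all promoters), the FOXH1-like letters AATNCACA (3.24%) and the DR5 retinoic acid response element, a spaced direct repeat of AGGTCA (0.0074%) were not found in the 8 promoters. These matches are a description of letters in a short window and bear on no binding.

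The libraries held 21523742 to 48350904 counts on genes (median 26720028). Levels are given as CPM, the counts of a gene per 1000000 counts of the library after TMM scaling. The counts of Apex1 itself were higher, not lower, in the libraries labelled Apex1 knockout, at 75.4 and 72 CPM against 8.18, 7.69 and 17.9 CPM in control mESCs, and they also went against the label in EBs and EBs + RA. Neil1 was at 31.6, 2.50 and 7.28 CPM in its mutant mESCs against 9.82, 9.53 and 7.67 CPM in the controls, overlapped with them in EBs and lay below them in EBs + RA. Neil2 overlapped between its mutant and the controls in mESCs and in EBs, and in EBs + RA it too went against the label, at 5.78, 5.23 and 4.87 CPM against 3.31, 3.86 and 4.48 CPM. Counts over a whole gene include exons outside the stretch that was edited and do not check its deletion. The Apex1 libraries are therefore called libraries labelled Apex1 below. Neil1 and Neil2 likewise stand for the labels, and every direction given for a mutant rests on them. The 10 markers of pluripotent cells summed to 5898 to 8896 CPM over all mESC libraries, with none near 0. In the mESC library of Neil1 clone #11, 345 of 511 X-linked genes were without counts, among genes that reached 10 counts in all the other mESC libraries, as were 0 of 13605 autosomal genes.

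In control cells, 8 of the 10 genes rose from mESCs to EBs and fell again with RA, and Foxc2 took the opposite course with RA. T encodes the T-box factor brachyury, which marks the streak and is needed for posterior mesoderm. It was at 1.10, 0.863 and 0.672 CPM in control mESCs, 71.5, 70.9 and 117 CPM in EBs and 0.418, 0.331 and 0.132 CPM in EBs + RA. No library of one stage overlapped with one of EBs, where T reached 86.4 ± 26.3 CPM (SD, n = 3). Eomes, a T-box factor of the anterior streak and of definitive endoderm, was at 7.30, 8.85 and 8.50 CPM in mESCs, 114, 86.4 and 118 CPM in EBs and 2.61, 3.46 and 3.65 CPM in EBs + RA. Unlike T, it was already present at several CPM in mESCs, above its level in EBs + RA in every clone. Mixl1, a homeobox factor that acts downstream of NODAL in the streak, was at 0.986, 0.938 and 0.910 CPM in mESCs, 106, 65.6 and 107 CPM in EBs and 0.258, 0.294 and 0.658 CPM in EBs + RA.

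Groups were compared in edgeR with a quasi-likelihood test, p-values were adjusted by Benjamini and Hochberg's method over all genes tested, and a gene was called at an adjusted p below 0.1 with a log2 fold change above 0.5 in size. From mESCs to EBs of the controls, the 8 genes called higher were T, Eomes, Mixl1, Mesp1, Msgn1, Gsc, Wnt3 and Evx1, and 19% of 16557 genes were called higher. The log2 fold change was 6.59 ± 0.32 (SE) for T, 6.59 ± 0.28 for Mixl1, 6.06 ± 0.48 for Evx1, 5.06 ± 0.66 for Msgn1, 3.67 ± 0.17 for Eomes, 3.67 ± 0.40 for Wnt3, 3.62 ± 0.34 for Gsc and 2.85 ± 0.50 for Mesp1. Tbx6 (log2 fold change 0.33 ± 0.29) and Foxc2 (-0.10 ± 0.45) were not called. The same 8 genes were called lower in EBs + RA than in EBs of the controls, where 21.1% of genes were called lower, with log2 fold changes from -8.15 ± 0.35 for T to -4.17 ± 0.35 for Gsc. Both comparisons share the control EB libraries, which carry the high level of these genes. Mesp1 and Msgn1 passed the filter on low counts only through these libraries.

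Per kilobase of exon, the order of the levels in control EBs was Mixl1 at 40.5 ± 10.3 CPM per kb (SD, n = 3), T at 37.4 ± 11.4, Eomes at 25.5 ± 4.12, Wnt3 at 11.2 ± 1.91, Evx1 at 10.6 ± 1.52, Gsc at 4.01 ± 0.254, Msgn1 at 4.00 ± 2.54, Mesp1 at 2.90 ± 1.41, Tbx6 at 1.16 ± 0.169 and Foxc2 at 0.161 ± 0.0897. The libraries of Mixl1 and T overlapped, as did those of Wnt3 and Evx1 and those of Gsc, Msgn1 and Mesp1, while the ranges of the other neighbours in this order did not. Tbx6, a T-box factor of presomitic mesoderm, and Foxc2 were the lowest of the 10 genes at this stage.

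Foxc2, a forkhead factor of paraxial mesoderm, mesenchyme and cranial neural crest, was at 0.389, 0.702 and 0.221 CPM in control EBs and at 47.7, 75.6 and 63.6 CPM in control EBs + RA. Its level per kilobase in EBs + RA, 22.9 ± 5.14 CPM per kb, was of the order of that of Eomes in EBs. The change with RA was 7.20 ± 0.35 on the log2 scale (adjusted p = 6.14e-08), and 22% of genes were called higher. Tbx6 was at 1.29, 1.54 and 1.48 CPM in control EBs + RA against 2.33, 1.75 and 2.21 CPM in EBs, which was not called (log2 fold change -0.52 ± 0.29, adjusted p = 0.171), although the ranges did not overlap.

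**Figure D1:**
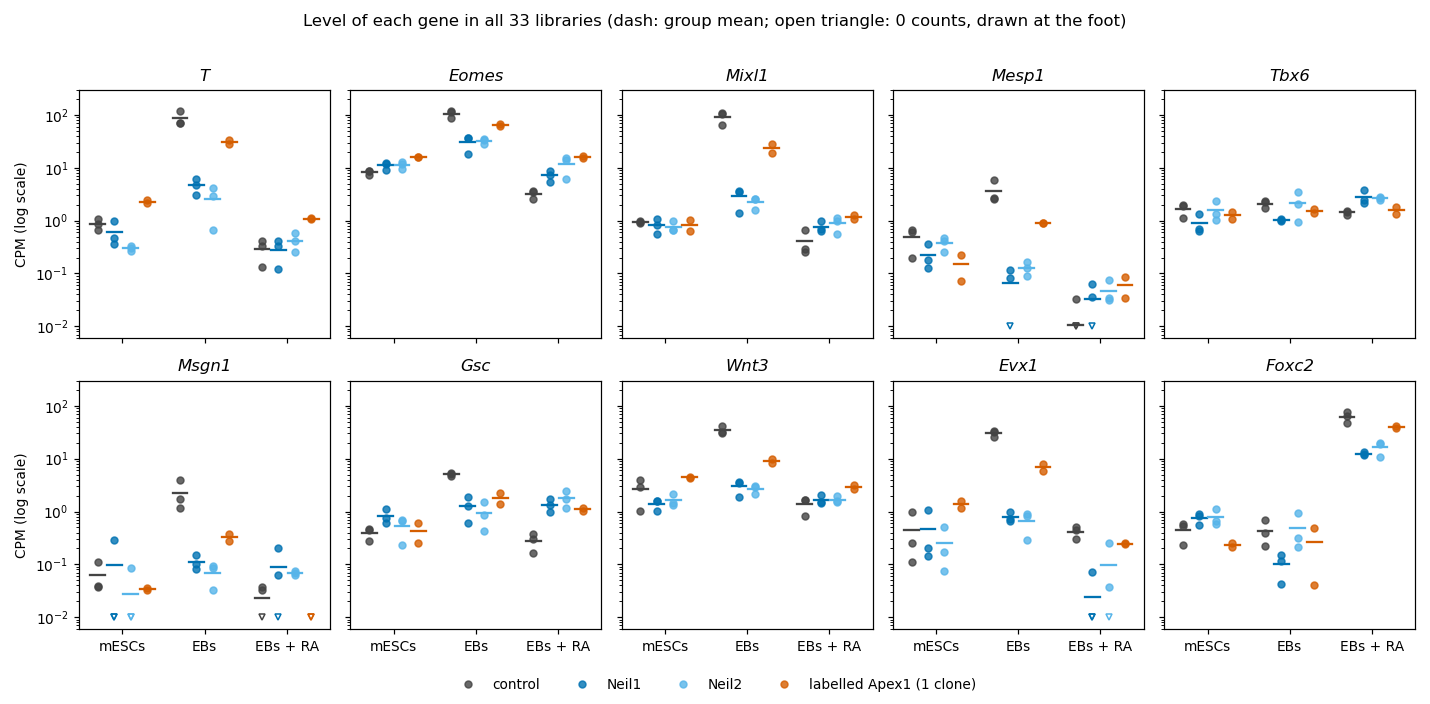
Level of each of the 10 genes in all 33 libraries, in CPM on a log scale, by stage on the x axis and by genotype in colour, with a dash at each group mean and open triangles for libraries with 0 counts. For 8 genes the 3 control EB libraries stand above every other library, as for T at 71.5, 70.9 and 117 CPM, and for Foxc2 the control EBs + RA stand highest at 47.7, 75.6 and 63.6 CPM.

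In EBs, the streak genes were lower in all 3 mutants than in the controls. With Neil1, 9 genes were called lower, all those tested, against 13.1% of 15479 genes. With Neil2, 8 of 10 were called lower, against 7.69% of 15575 genes. In the libraries labelled Apex1, 8 of 10 were called lower, against 13.9% of 15780 genes, by smaller log2 fold changes. None of the 10 was called higher in any mutant, against 10.4%, 8.65% and 11.9% of all genes. With the Neil mutants, Mesp1 and Msgn1 passed the filter on low counts only through the control libraries, as did Msgn1 with the libraries labelled Apex1 and Evx1 with Neil2, so their test could hardly have given another direction. In these bulk libraries, fewer streak-like cells and less RNA per such cell cannot be told apart.

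T was at 6.16, 3.09 and 4.63 CPM in Neil1 EBs, 0.651, 4.18 and 2.87 CPM in Neil2 EBs and 27.6 and 33.6 CPM in EBs labelled Apex1. Every mutant library lay below the lowest control library at 70.9 CPM, and the group means were 5.35%, 2.97% and 35.4% of the control mean. The log2 fold change was -4.24 ± 0.32 (adjusted p = 9.42e-05), -5.11 ± 0.54 (adjusted p = 9.11e-04) and -1.48 ± 0.28 (adjusted p = 0.0139). Eomes was at 36.8, 36.6 and 18.5 CPM, 28.4, 34.1 and 34.5 CPM and 61.4 and 65.9 CPM. It kept more of its level than T, at 28.9%, 30.5% and 60.0% of the control mean, with log2 fold changes of -1.80 ± 0.27, -1.71 ± 0.16 and -0.72 ± 0.13, again with no overlap with the controls.

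Mixl1 was at 3.55, 3.67 and 1.37 CPM in Neil1 EBs, 2.54, 1.62 and 2.60 CPM in Neil2 EBs and 19.1 and 27.6 CPM in those labelled Apex1. Its mean thus fell from the highest of the 10 genes per kilobase to 3.08% and 2.42% of the control mean in the Neil mutants, and to 25.1% in the libraries labelled Apex1. The log2 fold change was -5.05 ± 0.37, -5.36 ± 0.27 and -1.97 ± 0.29 (adjusted p = 1.39e-04, 3.52e-05 and 0.00568). Evx1, a homeobox factor of the posterior streak, was at 34.0, 25.5 and 31.6 CPM in control EBs and at 0.651, 0.710 and 0.988 CPM, 0.293, 0.811 and 0.912 CPM and 5.77 and 8.02 CPM in the mutants. No library of the Neil mutants reached 1 CPM. The log2 fold changes of Evx1 were -5.26 ± 0.20, -5.54 ± 0.35 and -2.12 ± 0.18, and its adjusted p with Neil1, 1.85e-07, was the lowest of the 10 genes.

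Wnt3, the WNT ligand that is needed to form the streak, was at 41.4, 30.7 and 31.7 CPM in control EBs, 3.55, 1.92 and 3.53 CPM with Neil1, 2.12, 2.90 and 3.10 CPM with Neil2 and 8.19 and 9.83 CPM in the libraries labelled Apex1. The groups did not overlap, and the log2 fold changes were -3.53 ± 0.23, -3.68 ± 0.21 and -1.92 ± 0.16. Gsc, a homeobox factor of the anterior streak and organiser, was at 5.32, 5.19 and 4.71 CPM, 1.25, 1.88 and 0.608 CPM, 0.847, 0.427 and 1.5 CPM and 1.37 and 2.19 CPM in the same order. The groups did not overlap for Gsc either, and the log2 fold changes were -2.04 ± 0.33, -2.46 ± 0.39 and -1.48 ± 0.25, the last being about that of T.

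Mesp1 and Msgn1 mark mesoderm that has left the streak, Mesp1 the cardiac and cranial mesoderm and Msgn1 the presomitic mesoderm. Mesp1 had 125, 67 and 157 counts in control EBs, 0, 2 and 3 counts with Neil1, 5, 3 and 2 counts with Neil2 and 22 and 24 counts in the libraries labelled Apex1. Msgn1 had 80, 30 and 106, 2, 2 and 4, 1, 2 and 2 and 7 and 10 counts in the same order. Both genes were close to absent in the Neil mutants, with at most 5 counts in a library. The fitted log2 fold changes, -5.63 ± 0.60, -4.78 ± 0.51 and -2.01 ± 0.42 for Mesp1 and -4.27 ± 0.60, -5.0 ± 0.68 and -2.73 ± 0.61 for Msgn1, rest on these few counts in the Neil mutants.

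Tbx6 and Foxc2 followed in part only. Tbx6 was at 2.33, 1.75 and 2.21 CPM in control EBs, 1.00, 1.04 and 1.06 CPM with Neil1, 3.55, 0.939 and 2.05 CPM with Neil2 and 1.37 and 1.63 CPM in the libraries labelled Apex1. The Neil1 libraries lay below all controls (log2 fold change -1.03 ± 0.26, adjusted p = 0.0136), the Neil2 libraries lay on both sides of them (0.0650 ± 0.43, adjusted p = 0.944), and the libraries labelled Apex1 were not called (-0.47 ± 0.27, adjusted p = 0.220). Foxc2 had 18, 18 and 6 counts in control EBs, 3, 1 and 3 with Neil1, where it did not pass the filter, 29, 5 and 7 with Neil2 and 1 and 13 in the libraries labelled Apex1. At such counts a difference was not detectable in the latter 2 (log2 fold changes 0.25 ± 0.62 and -0.64 ± 0.77).

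The mutant libraries lay below every control library for 10 genes with Neil1, 8 with Neil2 and 9 with the libraries labelled Apex1, and the shares of all genes with such a gap were 22.1%, 16.3% and 30.3%. Above every control library they lay for 0 genes in each, against 21.4%, 16.5% and 27.6%. The 10 genes with Neil1 include Foxc2, which was not tested, while the shares cover tested genes only. The median log2 fold change over the genes tested was -4.24, -4.23 and -1.70, against -0.00058, 0.023 and -0.00015 over all genes tested. No library decided a call on these genes in EBs, since leaving out any 1 library kept every call against the controls.

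**Figure D2:**
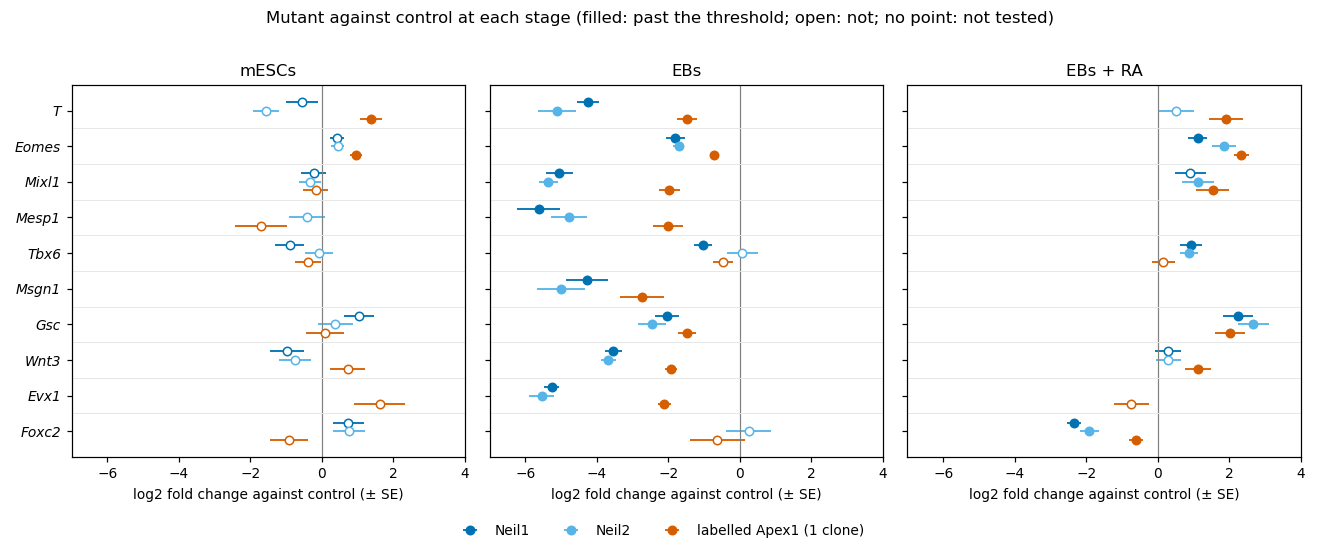
Log2 fold change of each mutant against the controls of its stage (x axis, with SE as bars) for the 10 genes (y axis) in mESCs, EBs and EBs + RA, filled where the change was called. In EBs the points of T lie at -4.24, -5.11 and -1.48 and all called points lie left of 0, while in EBs + RA those of Eomes, Gsc and, where called, Tbx6, Mixl1, T and Wnt3 lie right of 0 and those of Foxc2 left of 0.

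Of the 8 genes that rose from mESCs to EBs in the controls, 4 were called higher with either Neil mutant. T, Eomes, Mixl1 and Wnt3 were called higher in EBs than in mESCs with Neil1 and with Neil2, and 11.6% and 14.7% of genes were. The rise of T was 2.91 ± 0.46 and 3.07 ± 0.62 on the log2 scale with Neil1 and Neil2, against 6.59 ± 0.32 in the controls, and that of Mixl1 was 1.79 ± 0.43 and 1.55 ± 0.35 against 6.59 ± 0.28. Wnt3 rose by 1.10 ± 0.34 and 0.73 ± 0.30 only, and its call was lost when any of 3 Neil1 libraries (lowest value 0.95) or any of 4 Neil2 libraries (lowest value 0.60) was left out. In the libraries labelled Apex1, 7 genes rose, T, Eomes, Mixl1, Mesp1, Gsc, Wnt3 and Evx1, and 17.5% of genes did, with 3.72 ± 0.17 for T and 4.77 ± 0.26 for Mixl1. Mesp1 passed the filter there only through EBs, with 22 and 24 counts. T with Neil2, at 8 counts in each mESC library, would not have passed it without EBs either.

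Mesp1 and Msgn1 did not pass the filter in the stage comparison of either Neil mutant, with 9, 3 and 5 counts of Mesp1 in Neil1 mESCs and 6, 11 and 14 in Neil2 mESCs. In EBs of the same mutants Mesp1 had 0, 2 and 3 and 5, 3 and 2 counts, so that its mean CPM was lower in EBs than in mESCs, the reverse of the controls, at counts too few for a test. Gsc and Evx1 were tested and not called there, with log2 fold changes of 0.54 ± 0.44 and 0.73 ± 0.69 with Neil1 and 0.78 ± 0.54 and 1.43 ± 0.80 with Neil2. The value of Evx1 with Neil1 was 2.13 and was called when mESC clone #9, with 25 counts against 5 and 4 in the other clones, was left out. Evx1 with Neil1 would not have passed the filter without EBs. Foxc2 was called lower in EBs than in mESCs with Neil1 (-2.90 ± 0.42, adjusted p = 6.74e-04), and 13.4% of genes were. It had 22, 13 and 23 counts in mESCs and 3, 1 and 3 in EBs and passed the filter only through mESCs and EBs + RA, where it was higher. With Neil2 it was not called (-0.60 ± 0.51) but was without EB clone #1 (-1.55), and in the libraries labelled Apex1 it turned from 0.18 ± 0.69 to a call at -2.44 without the second EB duplicate.

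In mESCs, where most of the 10 genes were near or below 1 CPM, neither Neil mutant gave a call by edgeR. Genes called higher and lower made up 1.03% and 0.784% of all genes with Neil1 and 1.4% and 0.429% with Neil2. Before adjustment, 1 gene, Gsc, was below 0.05 with Neil1 in edgeR's test and 2, T and Eomes, with Neil2, and DESeq2 called 0 genes with Neil1 and 1, T, with Neil2. T was at 1.10, 0.863 and 0.672 CPM in control mESCs, 0.368, 0.977 and 0.473 CPM with Neil1, 0.336, 0.297 and 0.270 CPM with Neil2 and 2.12 and 2.48 CPM in the libraries labelled Apex1. The Neil2 libraries lay below and those labelled Apex1 above all controls. Counted over the 10 genes, every library lay below the controls for 0, 1 and 1 genes with Neil1, Neil2 and in the libraries labelled Apex1, against 9.85%, 8.79% and 25.7% of all genes, and above them for 2, 1 and 4, against 10.9%, 13.7% and 25.2%. The gene below in the libraries labelled Apex1 was Msgn1, at 1 count in each. It was not tested, and the shares cover tested genes only.

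In the mESC libraries labelled Apex1, T (log2 fold change 1.38 ± 0.32, adjusted p = 0.0446) and Eomes (0.95 ± 0.17, adjusted p = 0.0288) were called higher, and 7.87% of genes were. None of the 10 was called lower, against 9.07% of genes. Eomes was at 16.3 and 15.7 CPM there, against 7.30, 8.85 and 8.50 CPM in the controls. Both calls were lost without control clone #4 (1.36 for T and 1.01 for Eomes) and without either duplicate (1.49 and 1.26 for T, 0.922 and 0.982 for Eomes). Control clone #7 stood apart from the other controls in Evx1, at 0.256, 0.113 and 0.989 CPM, and in Wnt3, at 4.02, 2.96 and 1.03 CPM. Without it, Evx1 was called higher (2.86) and Mesp1 (-2.06), Foxc2 (-1.22) and Tbx6 (-0.60) lower in the libraries labelled Apex1, Wnt3 was called lower with Neil1 (-1.36) and Neil2 (-1.14), and T was called lower with Neil2 (-1.73).

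In EBs + RA, where RA had brought most of these genes down in the controls, several were higher in the mutants than in the controls. Eomes was at 2.61, 3.46 and 3.65 CPM in the controls, 8.83, 7.14 and 5.45 CPM with Neil1, 6.22, 15.3 and 13.8 CPM with Neil2 and 17.0 and 15.4 CPM in the libraries labelled Apex1. Every mutant library lay above every control library. The log2 fold change was 1.12 ± 0.27 (adjusted p = 0.0146), 1.85 ± 0.34 (adjusted p = 0.00536) and 2.34 ± 0.22 (adjusted p = 7.92e-04). Gsc was at 0.161, 0.368 and 0.296 CPM, 0.995, 1.70 and 1.32 CPM, 1.15, 1.75 and 2.40 CPM and 1.19 and 1.03 CPM in the same order. It too did not overlap with the controls, with log2 fold changes of 2.25 ± 0.42, 2.67 ± 0.43 and 2.02 ± 0.43, the last of which was not called without the first duplicate (1.91). Gsc passed the filter only through the mutants, with 5, 10 and 9 counts in the controls, so its test could hardly have given another direction.

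With Neil1, the genes called higher in EBs + RA were Eomes, Gsc and Tbx6, with Neil2 also Mixl1, and in the libraries labelled Apex1 they were T, Eomes, Mixl1, Gsc and Wnt3. Of all genes, 21.2%, 18.3% and 13.9% were called higher. T in the libraries labelled Apex1, and Mixl1 in these and with Neil2, passed the filter on low counts only through the mutants. The controls had 13, 9 and 4 counts of T and 8, 8 and 20 counts of Mixl1. The tests of both genes could hardly have given another direction. Tbx6 was at 1.29, 1.54 and 1.48 CPM in the controls, 2.11, 3.72 and 2.48 CPM with Neil1 and 2.78, 2.44 and 2.71 CPM with Neil2, all above the controls. Its log2 fold change was 0.92 ± 0.31 with Neil1, and the call was lost without control clone #1 (0.85), control clone #4 (0.97) or Neil1 clone #9 (0.66). With Neil2 it was 0.88 ± 0.25, and the call was lost without control clone #1 (0.81).

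T in EBs + RA was at 0.418, 0.331 and 0.132 CPM in the controls and 1.06 and 1.13 CPM in the libraries labelled Apex1. Although the groups did not overlap (log2 fold change 1.90 ± 0.47, adjusted p = 0.0264), this level was 1.27% of that of T in control EBs, and the call was lost without either duplicate (1.94 and 1.85). Mixl1 was at 0.258, 0.294 and 0.658 CPM in the controls, 0.556, 0.983 and 1.11 CPM with Neil2 (1.12 ± 0.46) and 1.27 and 1.06 CPM in the libraries labelled Apex1 (1.53 ± 0.46). Its call with Neil2 was lost with DESeq2 (1.14), with no filter on low counts (1.11) and without control clone #1 (0.88) or #4 (0.95) or Neil2 clone #11 (1.04) or #14 (0.94). In the libraries labelled Apex1 it was lost without control clone #1 (1.29) or #4 (1.36) or either duplicate (1.40 and 1.66). Mixl1 with Neil1 was not called (0.92 ± 0.45) but was called with all 12 groups in 1 fit (0.91) and without control clone #7 (1.45), the highest control. Wnt3 was higher in the libraries labelled Apex1 (1.13 ± 0.36, adjusted p = 0.0588), a call that was lost without either duplicate (1.00 and 1.26).

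Foxc2 was lower in all 3 mutants in EBs + RA, at 13.2, 11.8 and 12.4 CPM with Neil1, 19.9, 10.9 and 18.8 CPM with Neil2 and 41.5 and 38.8 CPM in the libraries labelled Apex1, against 47.7, 75.6 and 63.6 CPM in the controls. The groups did not overlap. The log2 fold change was -2.34 ± 0.19 (adjusted p = 1.75e-04), -1.91 ± 0.26 (adjusted p = 0.00155) and -0.62 ± 0.20 (adjusted p = 0.0594), and 19.9%, 16.6% and 10.9% of genes were called lower. The last of these calls was lost without control clone #4 (-0.45), without either duplicate (-0.67 and -0.56) and with all 12 groups in 1 fit (-0.65). Over the 10 genes, every library lay below the controls for 2 genes in each mutant, against 26.6%, 25.6% and 27.2% of all genes, and above them for 3, 4 and 6, against 25.7%, 22.9% and 25.3%. The shares cover tested genes only. The counts above include Msgn1 with Neil2, at 2 counts in each library, and Mesp1 in the libraries labelled Apex1, at 2 and 1 counts. Neither was tested. Those below include Evx1, which was not tested with the Neil mutants. Mesp1 and Msgn1 had at most 5 counts in every EB + RA library, at which no difference was detectable. Evx1 had 16, 12 and 9 counts in the controls, 0, 2 and 0 with Neil1, 1, 8 and 0 with Neil2 and 6 and 7 in the libraries labelled Apex1, and it passed the filter for the last only (-0.73 ± 0.49, not called).

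**Figure D3:**
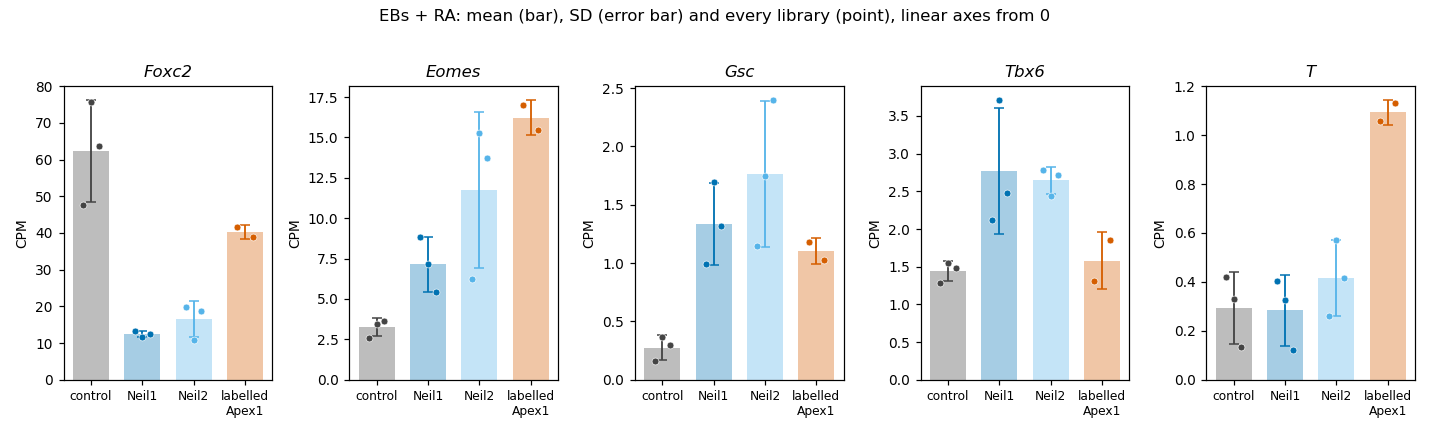
Levels of Foxc2, Eomes, Gsc, Tbx6 and T in EBs + RA in CPM on linear axes that start at 0, with the mean as a bar, the SD as an error bar and each library as a point, for the 3 control, 3 Neil1, 3 Neil2 and 2 technical duplicate libraries labelled Apex1. The mutant bars of Foxc2 are lower and those of Eomes and Gsc higher than the control bar, whereas T stands out in the libraries labelled Apex1 alone, at 1.06 and 1.13 CPM.

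Within the mutants, Foxc2 was called higher and 5 streak genes were called lower with RA, while Gsc was not called. Foxc2 rose by 6.92 ± 0.39, 5.01 ± 0.49 and 7.19 ± 0.35 on the log2 scale with Neil1, Neil2 and in the libraries labelled Apex1, where 28.4%, 22.7% and 26.5% of genes were called higher. With Neil1, Tbx6 rose as well (1.44 ± 0.36, adjusted p = 0.00615). T, Eomes, Mixl1, Wnt3 and Evx1 were called lower with RA in all 3 mutants and Mesp1 also in the libraries labelled Apex1, and 23%, 21.7% and 22% of genes were called lower. Evx1 with either Neil mutant, T with Neil2 and Mesp1 in the libraries labelled Apex1 would not have passed the filter on low counts without EBs. Foxc2 in the libraries labelled Apex1 would not have passed it without EBs + RA. The direction of these calls could hardly have been another. Eomes changed by -2.07 ± 0.29, -1.44 ± 0.28 and -1.96 ± 0.11 on the log2 scale, against -5.0 ± 0.19 in the controls. Gsc, which fell in the controls, was not called with RA in any mutant (0.13 ± 0.43, 0.95 ± 0.49 and -0.68 ± 0.36). With Neil2 it was called higher with all 12 groups in 1 fit (0.97) and without EB clone #14 (1.45) or EB + RA clone #1 (1.18). In the libraries labelled Apex1 it was called lower with no filter on low counts (-0.70) and without the first EB duplicate (-0.98). The fall of Wnt3 (-0.81 ± 0.34 and -0.67 ± 0.30) was lost without any of 4 libraries of Neil1 (value nearest to 0 -0.67) or of Neil2 (value nearest to 0 -0.57).

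Whether the difference from the controls itself changed with RA was tested by an interaction term, called at an adjusted p below 0.1. Above 0 were 8 genes for Neil1 (T, Eomes, Mixl1, Mesp1, Tbx6, Msgn1, Gsc and Wnt3), 8 for Neil2 (Evx1 in place of Tbx6) and 6 for the libraries labelled Apex1 (T, Eomes, Mixl1, Gsc, Wnt3 and Evx1). Of all genes, 17.3%, 7.42% and 10.4% were above 0. Eomes was at 2.94 ± 0.37, 3.55 ± 0.37 and 3.04 ± 0.23 on the log2 scale and Gsc at 4.30 ± 0.57, 5.12 ± 0.61 and 3.49 ± 0.47. For these genes the sign of the difference from the controls turned, from lower in EBs to higher in EBs + RA. Mesp1 and Msgn1 entered the fits of the Neil mutants only through the control EBs and had at most 5 counts in every library of the other 3 groups, so their terms could hardly have been below 0. Without them, 6 genes were above 0 for each Neil mutant. Of these, T, Mixl1 and, with Neil2, Evx1 were hardly free either. In control EBs + RA, T had 13, 9 and 4, Mixl1 8, 8 and 20 and Evx1 16, 12 and 9 counts. In EBs, T was at 5.35% and 2.97% and Mixl1 at 3.08% and 2.42% of the control mean with Neil1 and Neil2. Evx1 was at 2.21% with Neil2. A term below 0 would have needed a still lower share of these few counts. A term above 0 need not mean a level above the controls in EBs + RA. There T had 13, 9 and 4 counts in the controls and 13, 9 and 3 with Neil1. Evx1 had 16, 12 and 9 counts in the controls, 1, 8 and 0 with Neil2 and 6 and 7 in the libraries labelled Apex1. It thus lay below the controls in both. The term of Foxc2 was below 0 for Neil2 (-2.21 ± 0.65), where 7.98% of genes were.

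With the clone as a block, Mesp1 was also called for the libraries labelled Apex1 (4.00, adjusted p = 0.0802 by edgeR). The calls of Mesp1 for Neil1 without clone #7 in EBs + RA (6.21), of Msgn1 for Neil1 without clone #11 in EBs + RA (4.74) and of Evx1 for Neil2 without clone #11 in EBs + RA (1.30) were lost. That of Foxc2 for Neil2 was lost without any of 4 libraries, control clones #1 (-2.12) and #7 (-1.95) and Neil2 clone #1 (-1.25) in EBs and control clone #4 in EBs + RA (-2.01). Tbx6 was called for Neil2 without EB clone #1 (1.36). Mesp1 for the libraries labelled Apex1 was also called with no filter (3.98), with DESeq2 (4.23) and without control clone #7 in EBs (3.52). That of Evx1 for the libraries labelled Apex1 was lost without 7 of the 10 libraries (1.14 to 1.41).

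Between the Neil1 and Neil2 mutants, edgeR called none of the 10 genes at any stage, and DESeq2 called 0 as well. Of all genes tested, 0% were called in either direction in mESCs, EBs and EBs + RA, although 1400, 1128 and 2099 genes at the respective stages were below 0.05 before adjustment. Of the 10 genes these were T in mESCs (log2 fold change 1.00 ± 0.43), Tbx6 (-1.07 ± 0.43) and Foxc2 (-2.29 ± 0.89) in EBs and Eomes in EBs + RA (-0.71 ± 0.31). The difference in EBs was 0.88 ± 0.51 for T and 0.34 ± 0.36 for Mixl1 on the log2 scale. A missed threshold does not show that the mutants are alike in these genes.

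The libraries labelled Apex1 differed from the mean of the Neil mutants. In EBs, T (3.18 ± 0.43), Mixl1 (3.22 ± 0.30), Evx1 (3.27 ± 0.33), Mesp1 (3.18 ± 0.49), Wnt3 (1.68 ± 0.26) and Eomes (1.03 ± 0.22) were called higher in them, and 9.32% of genes were. Mesp1 passed the filter there only through the libraries labelled Apex1, with 22 and 24 counts against at most 5 in the Neil mutants, so its direction was fixed. The call of Eomes was lost without the second duplicate (0.98). In mESCs T (2.45 ± 0.33), Evx1 (2.06 ± 0.64), Wnt3 (1.60 ± 0.25) and Eomes (0.53 ± 0.17) were called higher and Foxc2 (-1.67 ± 0.44) lower, where 16.3% and 15.2% of genes were. Foxc2 passed the filter only through the Neil mutants. The calls of Eomes, Evx1 and Foxc2 were lost without either duplicate (0.51 and 0.55, 2.25 and 1.83, -1.80 and -1.56). Eomes also fell under the limit on size without Neil1 clone #11 or Neil2 clone #1 (0.46 each). In EBs + RA, T (1.62 ± 0.42), Foxc2 (1.46 ± 0.21), Eomes (0.80 ± 0.30) and Wnt3 (0.79 ± 0.27) were called higher and Tbx6 (-0.79 ± 0.31) lower, where 13.5% and 13.1% of genes were. There only Foxc2 kept its call without either duplicate.

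Other genes of the same pathways were followed in lists drawn up by role. Of all genes tested in EBs, 10.4%, 8.65% and 11.9% were called higher with Neil1, Neil2 and in the libraries labelled Apex1. Called lower were 13.1%, 7.69% and 13.9%. The list of streak signals, ligands and other components of the pathways that induce the streak, was split in EBs, with 2 of 11 genes higher and 4 lower with Neil1, 1 higher and 3 lower with Neil2, and 6 higher and 3 lower in the libraries labelled Apex1. Fgf8, which moves cells out of the streak, changed by -3.05 ± 0.32, -3.05 ± 0.37 and -2.19 ± 0.22 on the log2 scale, and the mesoderm inducer Bmp4 by -2.72 ± 0.15, -2.63 ± 0.20 and -2.09 ± 0.16. Fgf4, a ligand of pluripotent cells, rose by 1.41 ± 0.08, 1.44 ± 0.13 and 0.93 ± 0.09. The median of the list was -0.21, -0.047 and 0.68.

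Of the 12 genes tested in the streak and node list, 1 was higher and 6 were lower with Neil1, 1 and 7 with Neil2, and 1 and 7 in the libraries labelled Apex1. Sp5, a direct target of WNT signals, changed by -4.01 ± 0.26, -3.91 ± 0.45 and -1.98 ± 0.25. The gene that rose was Foxj1, a factor of motile cilia (1.43 ± 0.21, 1.59 ± 0.26 and 1.25 ± 0.21). In the list of tail bud and presomitic mesoderm, 9, 6 and 7 of 12 genes were lower and 1 was higher in each. Nkx1-2, a factor of the caudal epiblast, changed by -5.65 ± 0.55, -6.13 ± 0.56 and -1.88 ± 0.59 and the caudal homeobox gene Cdx2 by -5.50 ± 0.24, -5.40 ± 0.28 and -2.77 ± 0.26.

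The list of lateral plate and extraembryonic mesoderm had the highest share of genes called lower of the 5 lists, with 10, 10 and 12 of 13 lower and 0 higher in EBs. Kdr, the VEGF receptor of early vascular mesoderm, changed by -4.72 ± 0.19, -5.11 ± 0.21 and -3.23 ± 0.23, and Foxf1, a factor of splanchnic mesoderm, by -5.12 ± 0.45, -5.28 ± 0.70 and -3.14 ± 0.39. The median of the list was -2.84, -3.10 and -2.34. In the somite list, 3 of 6, 3 of 7 and 1 of 6 genes tested were lower, Foxc1 among them (-2.41 ± 0.36, -2.67 ± 0.41 and -0.98 ± 0.32), and Tcf15 was higher (1.05 ± 0.15, 0.92 ± 0.16 and 1.05 ± 0.14).

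**Figure D4:**
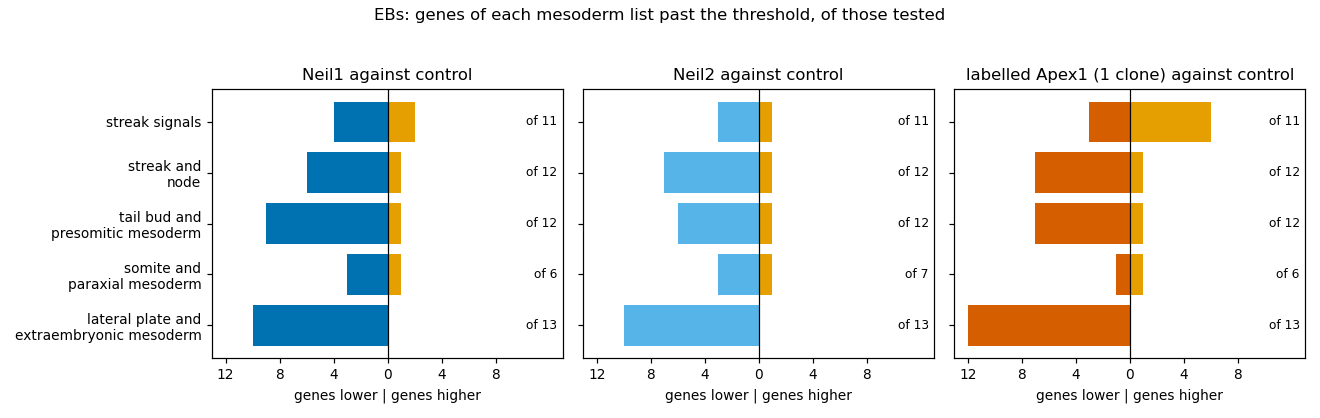
Number of genes of the 5 mesoderm lists (y axis) that were called lower (left of 0) or higher (right of 0) in EBs against the controls (x axis, in genes) with Neil1, Neil2 and in the libraries labelled Apex1, with the number tested at the right. The bars of lateral plate and extraembryonic mesoderm reach 10, 10 and 12 of 13 genes on the left and 0 on the right, while the streak signals show 6 of 11 higher in the libraries labelled Apex1.

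In EBs + RA, the streak signals had 3, 5 and 7 of 10 genes higher and 2, 2 and 0 lower. Of all genes tested there, 21.2%, 18.3% and 13.9% were called higher and 19.9%, 16.6% and 10.9% lower. Nodal, the ligand upstream of Eomes, Mixl1 and Gsc, rose by 1.55 ± 0.30, 2.35 ± 0.43 and 3.19 ± 0.25 on the log2 scale. The streak and node list had 3, 0 and 2 of 12 genes higher and 7, 5 and 3 lower, and that of tail bud and presomitic mesoderm 3, 5 and 3 of 12 higher and 6, 6 and 4 lower. In the somite list, 5 of 9, 5 of 10 and 4 of 10 genes were lower, which was also the direction of Foxc2. Pax7, a factor of dermomyotome and dorsal neural tube, changed by -3.42 ± 0.73, -2.92 ± 0.41 and -1.30 ± 0.36. Of the 14 genes of lateral plate and extraembryonic mesoderm, 5 were higher and 7 lower with Neil1, 3 higher and 5 lower with Neil2, and 5 higher and 1 lower in the libraries labelled Apex1.

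Markers of other cell types moved beside these genes. The shares of all genes called in EBs and in EBs + RA, given above for the lists, apply to all marker counts too. The summed level of 10 genes of pluripotent cells in EBs was 3501 to 4060 CPM in the controls, 5601 to 7129 with Neil1, 5294 to 6996 with Neil2 and 6752 to 6897 in the libraries labelled Apex1, with 9, 8 and 8 of 10 called higher. In EBs + RA, where Eomes and Gsc were higher, it was 170.3 to 265.2 CPM in the controls, 493.2 to 966.3, 537.6 to 1751 and 1634 to 2233, with 9, 10 and 9 of 10 higher, and no marker was at or near 0. The 11 markers of visceral and definitive endoderm, where Eomes and Gsc can be expressed too, summed in EBs to 347.7 to 661.2 CPM in the controls, 532.0 to 758.1 with Neil1, 192.7 to 921.9 with Neil2 and 87.3 to 105.5 in the libraries labelled Apex1, with 0, 0 and 9 of 11 lower. In EBs + RA they summed to 183.5 to 644.6 CPM in the controls and 686.6 to 1436, 221.8 to 763.4 and 253.4 to 261.7 CPM in the mutants, with 6, 1 and 1 of 10 tested higher and 0 lower, and Cer1 had at most 3 counts in each library. The sums with Neil1 lay above all the controls. In EBs + RA the 7 markers of V0 interneurons and ventral spinal cord, cells that can express Evx1, summed to 107.4 to 252.1 CPM in the controls and to 16.3 to 30.5, 12.3 to 21.3 and 22.2 to 28.1 CPM in the mutants, with 5 of 5 tested lower in each. Dbx1, Evx2 and Slc17a6 of this list had at most 3 counts in every library with Neil1, and Evx2 and Slc17a6 with Neil2. Any of these that was tested passed the filter on low counts only through the controls, so its direction could hardly have been another. The part of these cell types in the values of the 10 genes was not tested.

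Cranial mesenchyme and neural crest, which express Foxc2, were followed by 8 markers. They summed in EBs + RA to 163.8 to 193.3 CPM in the controls, 103.7 to 215.6 with Neil1, 77.3 to 111.1 with Neil2 and 135.5 to 137.9 in the libraries labelled Apex1, with 4, 4 and 3 of 8 lower and 1, 2 and 2 higher. In EBs they summed to 123.7 to 157.4 CPM in the controls and to at most 103.5 CPM in every mutant library. In EBs, 2, 1 and 2 of 4 markers of cardiomyocytes tested were lower, and their sum was 8.97 to 10.98 CPM in the controls and at most 5.85 CPM in every mutant library. In EBs + RA, 3, 3 and 3 of 5 markers of cortical intermediate progenitors, which can express Eomes, were lower, whereas Eomes was higher. For primed epiblast 1, 1 and 2 of 4 genes tested were higher in EBs and 0 lower. The 5 endothelial markers were split in EBs (2, 2 and 2 higher, 2, 1 and 2 lower), as were those of trophoblast, which can express Eomes (2, 1 and 0 of 5 higher, 1, 1 and 2 lower). In EBs + RA, where Eomes was higher, the trophoblast markers summed to 49.6 to 67.2 CPM in the controls and to 85.5 to 266.8, 76.9 to 142.9 and 73.9 to 82.0 CPM in the mutants, every library above the controls, with 3, 2 and 3 of 5 higher and 0, 0 and 2 lower. Prl7d1 of this list had at most 3 counts in the libraries labelled Apex1, and Cdx2 is also in the tail bud list. The part of these cells was likewise not tested.

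Over all 33 libraries, the gene whose log2 CPM was most like that of T among 15629 genes was 5730457N03Rik (Pearson's r = 0.936), followed by Wnt3 (0.927) and Mixl1 (0.924). Eomes was most like Arid3b (0.922), Fgf8 (0.910) and Mixl1 (0.902), and Foxc2 most like Six5 (0.967), the retinoic acid receptor gene Rarb (0.964) and 9130206I24Rik (0.963). The likeness was weaker for Mesp1 (Apln, 0.851), Msgn1 (Mixl1, 0.880), Gsc (Igsf11, 0.807) and Tbx6 (Unc93b1, 0.820). These correlations are a description of libraries that share stages and clones.

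The gene most like Evx1 was also 5730457N03Rik (0.956), which overlaps exons of Evx1 on the other strand, so that reads of both cannot be told apart with unstranded libraries. 5730457N03Rik was at 22.8, 15.7 and 18.0 CPM in control EBs, 0.451, 0.250 and 0.304 CPM with Neil1, 0.293, 0.427 and 0.319 CPM with Neil2 and 2.74 and 2.84 CPM in the libraries labelled Apex1. Like Evx1, it was below 1 CPM in every EB library of the Neil mutants. The genes expressed within 10 Mb of each of the 10 genes differed from the controls by a median between -0.38 and 0.47 over all mutant libraries, on the log2 scale. Around Gsc the median was 0.34 to 0.47 in the EB and EB + RA libraries labelled Apex1, and over the whole of chromosome 12, which also carries Msgn1, it was 0.23 to 0.30. Over chromosome 9, which carries Eomes, it was -0.31 to -0.27 in the 3 libraries of Neil1 clone #11. The lowest value, -0.38, was that around Evx1 in EBs + RA of the same clone. The part of these shifts in the values of the 10 genes was not tested.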

How the data were processed

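RNA-seq counts of the 10 genes were followed in 33 libraries. The authors prepared libraries with a kit that does not mark strand and read 51 cycles. Per the labels, TopHat2 2.0.9 with Bowtie2 2.1.0 placed the reads on NCBIM37, and HTSeq 0.5.4 gave the counts of each gene. The deposited values were raw counts for 37991 genes, without normalization, and the authors tested them with DESeq2 1.6.3. Rows that name no gene held 21.79% to 30.43% of the reads in a library and were left out. Reads listed as not uniquely aligned were 11.44% to 19.85%. Gene symbols and positions came from the NCBIM37 annotation and matched 37205 genes.

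Groups followed the sample labels, and no column lacked a sample. Counts were tested with edgeR 4.0.16 and limma 3.58.1 in R 4.3.3 by the robust quasi-likelihood test after filterByExpr and TMM scaling, with Benjamini-Hochberg adjustment over all genes tested. A comparison with controls used only the groups compared, a comparison of stages used the 3 stages of a genotype, an interaction used 4 groups, and a comparison between mutants used the 3 mutants of a stage. Log2 CPM for likeness used a prior count of 2, over genes with at least 1 CPM in 3 libraries, and genes within 10 Mb were used at 5 CPM or more. SE values are the log2 fold change divided by the root of F. Depth limits genes under about 1 CPM. Alternatives were DESeq2 1.42.0, RLE size factors, no filter, an FDR below 0.05, all groups in 1 fit, the replicate number or the clone as a block, and each library left out. Stages of a genotype share clones by their labels, so the clone pairs them. Exact permutation of 3 against 3 libraries cannot go below 0.1. The p-values of the Neil mutants measure spread between clones. Where a group kept 1 library, its spread was taken from the other groups. Tables and figures were made with Python 3.11.15, and the procedure was tested on simulated data. There it gave no call of the wrong sign, but in the EB comparisons of Neil1 and of the libraries labelled Apex1 with the controls, and of the latter with the Neil mutants, the share of false calls was above the adjusted p threshold.

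The members and lists were chosen with earlier results of these data known. Named genes outside the members were, per list and comparison, at most the 2 largest rises and 2 largest falls among the called genes, and the 3 genes most like each member. The value of such a gene in the other mutants is given beside it.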

Additional observations from a re-analysis of the deposited data

Results flagged for a closer look

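The difference from the controls changed with RA, by a test of that difference itself, in 23 results on the 10 genes. The test was an interaction term in edgeR's quasi-likelihood fit of EBs and EBs + RA, adjusted over all genes, and values are on the log2 scale with their SE. A value above 0 means that the mutant stood higher against the controls in EBs + RA than in EBs. For Neil1 the values were Mesp1 6.97 ± 1.83, Msgn1 5.98 ± 1.47, Mixl1 5.98 ± 0.60, Gsc 4.30 ± 0.57, T 4.22 ± 0.69, Wnt3 3.83 ± 0.43, Eomes 2.94 ± 0.37 and Tbx6 1.96 ± 0.38, with adjusted p from 5.42e-05 to 0.0165. For Neil2 the values were Mixl1 6.47 ± 0.50, Mesp1 6.46 ± 1.38, Msgn1 6.43 ± 1.30, T 5.60 ± 0.90, Gsc 5.12 ± 0.61, Wnt3 3.96 ± 0.38, Eomes 3.55 ± 0.37, Evx1 3.52 ± 1.00 and Foxc2 -2.21 ± 0.65, with adjusted p from 1.55e-05 to 0.0456. For the libraries labelled Apex1 the values were Gsc 3.49 ± 0.47, Mixl1 3.48 ± 0.52, T 3.37 ± 0.53, Eomes 3.04 ± 0.23, Wnt3 3.04 ± 0.36 and Evx1 1.37 ± 0.48, with adjusted p from 2.81e-05 to 0.0946. Every gene named here except Foxc2 lay above 0. Mesp1 and Msgn1 passed the filter on low counts only through the control EBs, with at most 5 counts in every library of the other 3 groups, so their 4 values could hardly have been below 0. The values of T and Mixl1 for the Neil mutants and of Evx1 for Neil2 were hardly free either. These genes had at most 20 counts in each control EB + RA library, and the mutant EBs were at 2.21% to 5.35% of the control mean.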

How the results depend on the processing

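A group left with 1 library was assumed to vary like the other groups of its fit. Of the 134 calls on the 10 genes, 0 changed direction under any alternative, and 1595 of 1699 values kept their side of the threshold. DESeq2 kept 133 of 134 calls, RLE size factors 133 of 134, no filter on low counts 128 of 134, an FDR below 0.05 124 of 134, and all 12 groups in 1 fit 107 of 111. Leaving out 1 library at a time kept 840 of 918. Without TMM, 14 of 120 mean CPM values moved beyond their SD. The replicate block in comparisons of genotypes kept 54 of 58 calls. Equal replicate numbers did not deviate together in general (correlations of deviations from -0.629 to 0.621 over 18 pairs), except between control and Neil1 EBs + RA (0.226 to 0.288), where the count of 4 calls was the same with the block. The clone as a block in comparisons of stages kept 76 of 76 and added 1. The number of the 10 genes called moved by over 1.5 times as follows. For Neil2 in mESCs it was 0, and 1 with DESeq2 and with the replicate block. For the libraries labelled Apex1 in mESCs it was 2, and 6 with the replicate block. For these libraries against the mean of the Neil mutants in EBs + RA it was 5, and 3 with no filter, 2 with the replicate block and 2 at an FDR below 0.05. Leaving out 1 library gave 0 to 1 for Neil1 and 0 to 2 for Neil2 in mESCs, 0 to 6 for the libraries labelled Apex1 in mESCs, 3 to 6 for Neil2 and 1 to 6 for the libraries labelled Apex1 in EBs + RA, and, against the mean of the Neil mutants, 2 to 5 in mESCs and 1 to 5 in EBs + RA. The cause was not tested. The values whose sign turned were uncalled in the reported fit and, except Foxc2 in EBs against mESCs labelled Apex1 without the second EB duplicate (-2.44, adjusted p = 0.0717 by edgeR), stayed so. As log2 values over the fits without 1 library they ranged as follows. Neil2 against control in mESCs gave Tbx6 -0.52 to 0.17. Libraries labelled Apex1 against control in mESCs gave Mixl1 -0.55 to 0.12, Gsc -0.64 to 0.59. Neil2 against control in EBs gave Tbx6 -0.51 to 0.42, Foxc2 -0.048 to 0.69. Libraries labelled Apex1 against control in EBs gave Foxc2 -3.28 to 0.21. Libraries labelled Apex1 against control in EBs + RA gave Tbx6 -0.11 to 0.38. EBs against mESCs in Control gave Foxc2 -0.52 to 0.17. EBs + RA against EBs in Neil1 gave Gsc -0.22 to 0.55. EBs against mESCs in Neil2 gave Tbx6 -0.083 to 0.90. EBs + RA against EBs in Neil2 gave Tbx6 -0.074 to 0.84. EBs against mESCs in libraries labelled Apex1 gave Foxc2 -2.44 to 1.03. EBs + RA against EBs in libraries labelled Apex1 gave Tbx6 -0.19 to 0.30. The RA by Neil1 interaction gave Evx1 -1.34 to 1.94, Foxc2 -0.69 to 0.054. The RA by Apex1 interaction gave Msgn1 -0.56 to 0.46, Foxc2 -0.86 to 2.62. Neil1 against Neil2 in mESCs gave Eomes -0.15 to 0.10, Mixl1 -0.15 to 0.29, Wnt3 -0.37 to 0.011, Evx1 -0.46 to 1.87, Foxc2 -0.23 to 0.30. Libraries labelled Apex1 against the mean of Neil1 and Neil2 in mESCs gave Mixl1 -0.26 to 0.40, Tbx6 -0.14 to 0.34. Neil1 against Neil2 in EBs gave Eomes -0.24 to 0.20, Evx1 -0.12 to 0.55. Libraries labelled Apex1 against the mean of Neil1 and Neil2 in EBs gave Tbx6 -0.17 to 0.28, Foxc2 -2.34 to 1.11. Neil1 against Neil2 in EBs + RA gave Mixl1 -0.42 to 0.0025, Tbx6 -0.19 to 0.23, Wnt3 -0.17 to 0.13. With the replicate block, Gsc in mESCs of the libraries labelled Apex1 was at -0.15, Tbx6 with Neil2 in EBs at -0.085 and Tbx6 in the mESC libraries labelled Apex1 against the mean of the Neil mutants at -0.10. Foxc2 in the RA by Apex1 interaction was at 0.0057 with DESeq2 and 0.038 with the replicate block by clone, and Wnt3 between Neil1 and Neil2 in EBs + RA at -0.0073 with all 12 groups. Depth limits Mesp1 and Msgn1, with at most 24 and 10 counts in a library outside control EBs, and Foxc2, with at most 30 outside EBs + RA.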
